A study of Mus musculus with 16 samples.

Results

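The microRNA miR-574 was followed here through both of its arms, mmu-miR-574-5p and mmu-miR-574-3p, which are 2 of the 1915 entries of the mature microRNA count table. They were found by name. They were chosen by their levels in the 2 groups of these same libraries, which had shown a difference in the 3p arm and not in the 5p arm, so that difference is given as a description, with no test. Both arms had counts in all 16 libraries, and both passed the low-count filter that left 234 entries for testing.

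Each library came from extracellular vesicles (EVs) of the bone marrow plasma of a 6-month-old mouse on the C57BL/6N background. All mice carried the CAGS-Snorkel allele, and the vesicles were captured with an antibody to the HA tag. The second allele was a Cre. It was Ocn-Cre in 6 mice, 3 of them male and 3 female, where the osteocalcin promoter turns it on late, in bone-forming cells and the osteocytes they become. It was Prx1-Cre in 10 mice, 5 of them male and 5 female, where expression starts in the limb bud mesenchyme and so marks many lineages that arise from it, osteoblasts and chondrocytes among them. The groups are called Ocn and Prx1 below. Sex is not given per library, and the 16 libraries include none from mice without Cre or from vesicles that were not captured.

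A microRNA hairpin is cut by Drosha and Dicer into a duplex of a 5p and a 3p strand, and an Argonaute protein keeps one of them, so the arms are made in equal number but need not last equally. Bases 2 to 8 of the kept strand, the seed, choose its targets. The arms of miR-574 have been studied separately in the skeleton. miR-574-3p is known as a microRNA that responds to the cartilage factor Sox9 in mesenchymal cells and restrains their turn into chondrocytes. miR-574-5p is known from EVs, where it can act as a ligand of toll-like receptors 7 and 8 and promote the formation of osteoclasts.

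The sequences show how unlike the arms are. In the mature strands, credited to RefSeq (GRCm38.p6), the seed is in capitals. In the hairpin the capitals mark the arms.
miR-574-5p: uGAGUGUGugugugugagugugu
miR-574-3p: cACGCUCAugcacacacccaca
Mir574 hairpin: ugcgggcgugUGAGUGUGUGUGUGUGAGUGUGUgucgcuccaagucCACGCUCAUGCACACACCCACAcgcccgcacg

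The 5p arm is 23 bases long and holds 11 G, 10 U, 2 A and 0 C. Its share of G and U, 91.3%, was reached by 1 of the 1679 mature mouse microRNAs in the RefSeq table, namely miR-574-5p itself. The 3p arm is 22 bases long and is 81.8% A and C, a share that 4 of the 1679 reached. It is also richer in G and C, at 59.1% against 47.8% for the 5p arm. Folded with RNAfold, the 78-base hairpin had a free energy of -55.6 kcal/mol, with 20 base pairs between the arms, of which 3 were G with U, and 13 bases separate the arms.

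Neither seed is shared. Of the other 1678 mature microRNAs, 0 had the bases 2 to 8 of either arm, and 0 had the bases 2 to 7, so each arm stood alone as a seed family. Parts of the repeats do recur elsewhere, and 4 entries with long runs in common are shown, chosen after their values were seen. The shared run is in capitals.
miR-3082-5p: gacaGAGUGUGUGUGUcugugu
miR-1187: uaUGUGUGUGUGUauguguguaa
miR-466q: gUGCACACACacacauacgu
miR-532-3p: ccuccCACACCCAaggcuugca
miR-3082-5p has a run of 12 bases in common with miR-574-5p, and it had 4 counts over all libraries. miR-1187 has 11 bases in common and had 6 counts. For the 3p arm, miR-466q has 9 bases in common and had 27 counts, at most 5 in a library. miR-532-3p has 8 bases in common and had 267 counts. Of the 6 entries listed with the longest shared run for each arm, miR-532-3p was the only one tested.

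Mir574 lies on chromosome 5, from 64970318 to 64970395 on the plus strand of mm10 (chr5:64970318-64970395). The 5p arm covers 64970328 to 64970350 and the 3p arm 64970364 to 64970385. The hairpin is in intron 1 (64970145 to 64979707) of the protein-coding gene Fam114a1, in the GENCODE annotation, and begins 247 bases after the annotated start of that gene (64970071). Both arms therefore come from a single genomic copy, and host and hairpin share a strand.

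In level, miR-574-5p spanned a common range in both groups, and miR-574-3p was lower in every Ocn library than in any Prx1 library. Levels are in CPM, the count divided by the column total of the library and scaled to 1000000, with SD over mice. miR-574-5p ran in Ocn from 69.7 CPM in Ocn 1 through a median of 88.7 CPM to 98.4 CPM in Ocn 6. In Prx1 it ran from 62.0 CPM in Prx1 8 through a median of 73.9 CPM to 108.9 CPM in Prx1 3. The Ocn range thus lay wholly inside the Prx1 range. The mean over Ocn was 85.4 ± 11.3 CPM (SD, n = 6) and that over Prx1 was 77.5 ± 16.3 CPM (SD, n = 10), a difference of 0.14 in mean log2 CPM (Ocn minus Prx1) against a pooled SD of 0.25.

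For miR-574-3p the groups lay apart. In Ocn it ran from 52.9 CPM in Ocn 6 through a median of 73.4 CPM to 92.7 CPM in Ocn 3. In Prx1 it ran from 106.6 CPM in Prx1 6 through a median of 143.8 CPM to 159.9 CPM in Prx1 5. The highest Ocn library was below the lowest Prx1 library, which was the case for 4 of the 234 tested entries (1.71%), and 3.85% did not overlap in either direction. The mean over Ocn was 73.2 ± 16.1 CPM (SD, n = 6), and the Prx1 mean was 140.4 ± 19.1 CPM (SD, n = 10). The difference in mean log2 CPM was -0.96, or 1.94-fold, against a pooled SD of 0.25. CPM is a share of the column total, so a lower level in captured vesicles has several readings. Fewer vesicles that hold the strand and fewer strands per vesicle are among them, and these cannot be told apart.

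**Figure D1:**
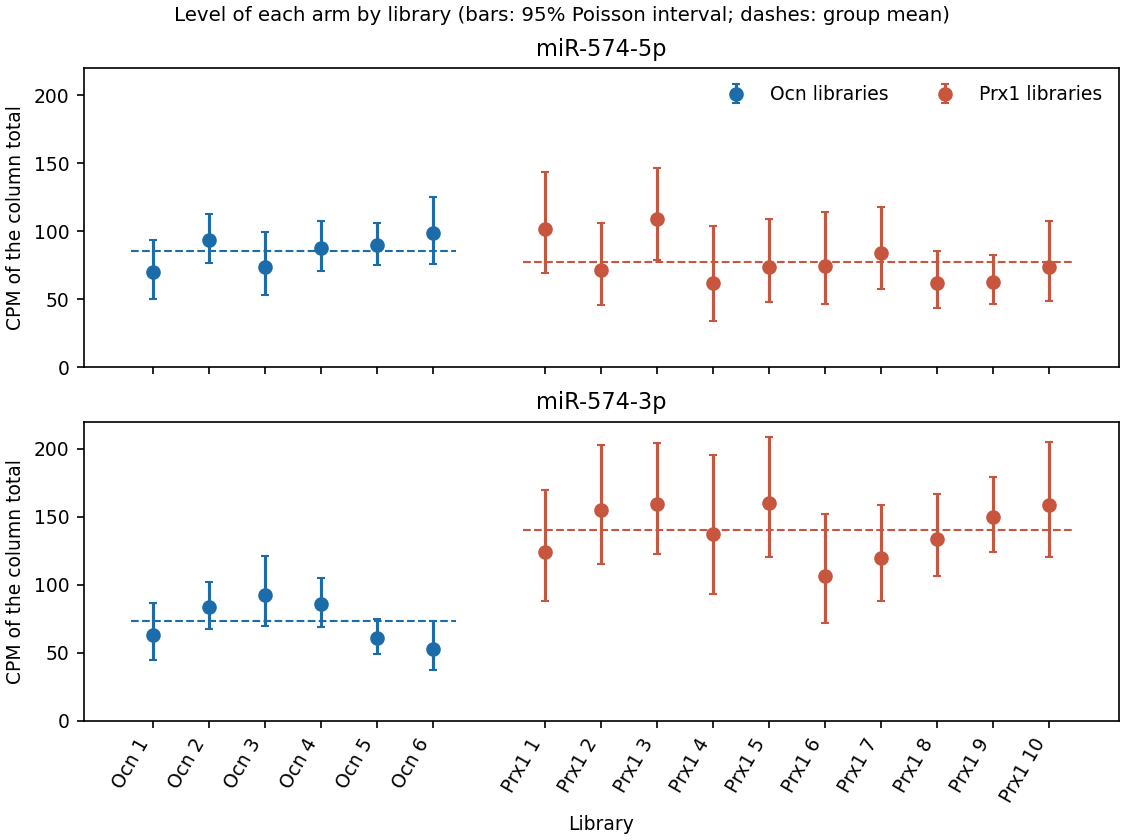
Level of miR-574-5p (top) and miR-574-3p (bottom) in each library, in CPM of the column total on a linear axis, with the 95% Poisson interval of the count as a bar and the group mean as a dashed line. The 5p levels of both groups span a common range, while the 6 Ocn libraries sit between 52.9 and 92.7 CPM for the 3p arm and the 10 Prx1 libraries between 106.6 and 159.9 CPM.

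The counts behind these levels were small. miR-574-5p had 43 to 138 counts per library in Ocn and 14 to 51 in Prx1, and miR-574-3p had 36 to 95 and 30 to 122. In the shallowest library, Prx1 4, the 14 counts of miR-574-5p give 62.1 CPM with a 95% Poisson interval of 34.0 to 104.3 CPM. In the deepest, Ocn 5, the 138 counts give 89.8 CPM with an interval of 75.5 to 106.1 CPM. These intervals cover counting error only, since the counts may hold amplification copies.

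The spread of the 5p arm within groups was close to that of counting alone. Its coefficient of variation was 13.2% in Ocn, where counting alone gives 11.8%, and 21.0% in Prx1, where counting gives 19.0%. The 3p arm varied in Prx1 by 13.6%, against 14.0% from counting. In Ocn, however, it varied by 22.0% where counting gives 12.9%, and its chi-square against the library totals was 2.94 per degree of freedom, compared with 0.89 in Prx1. In Ocn, libraries 1, 5 and 6 had 63.2, 61.2 and 52.9 CPM of the 3p arm, while libraries 2, 3 and 4 had 83.6, 92.7 and 85.6 CPM. The biological coefficient of variation that edgeR fitted was 0.17 for the 3p arm and 0.18 for the 5p arm, below the trend for entries of their abundance (0.25 and 0.26).

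Among all entries, the arms were of middling abundance. miR-574-5p ranked 147th by mean CPM in Ocn and 150th in Prx1, and miR-574-3p ranked 156th in Ocn and stood between the ranks 127 and 129 in Prx1. The neighbours in that order are near the arms in mean level by the way they were picked, and are given for scale. In Ocn, miR-574-5p stood between miR-674-5p (89.5 ± 18.9 CPM) and miR-32-5p (82.8 ± 19.4 CPM), and miR-574-3p between miR-3473e (73.7 ± 61.4 CPM) and miR-19a-3p (71.5 ± 47.4 CPM). In Prx1, the 5p arm stood between miR-350-3p (81.2 ± 42.6 CPM) and miR-503-5p (76.8 ± 31.9 CPM), and the 3p arm between let-7d-3p (145.02 ± 42.63 CPM) and miR-203-3p (131.9 ± 23.0 CPM).

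In the quasi-likelihood fit of edgeR over all 234 entries, the log2 fold change of Ocn over Prx1 was 0.12 (SE 0.16) for miR-574-5p and -0.97 (SE 0.16) for miR-574-3p, beside a median of 0.01 over all entries. The 3p arm was among the 18 entries called lower in Ocn, which are 7.69% of those tested, and the 5p arm was not called. Another 5.98% were called higher in Ocn, so that 13.7% were called in either direction. This is the contrast for which the arms were picked, so nothing is read from these calls. The call of the 3p arm ended when log10 of the library total entered the fit (log2 fold change -1.02, SE 0.24), a setting in which 0 entries were called by edgeR and 40 had an unadjusted p under 0.05.

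Depth differed with the group, at 582660 to 1536421 counts in Ocn and 225273 to 813770 in Prx1. Within the range of totals that both groups reached, 3 libraries of Ocn had a mean of 69.6 CPM of miR-574-3p (52.9 to 92.7) and 2 Prx1 libraries had a mean of 141.99 CPM (134.1 and 149.9). These libraries were chosen after seeing the data, and edgeR did not call the 3p arm in them (log2 fold change -1.09, SE 0.32), with 0 entries called and 30 at an unadjusted p under 0.05. The part of depth in the difference was not tested beyond these values. For miR-574-5p the same libraries had means of 80.6 CPM (Ocn) and 62.3 CPM (Prx1), which are further apart than the means of all libraries.

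Within groups, no relation of an arm with depth passed the threshold. Of 8 relations tested (arm with arm, and each arm and their ratio with log10 of the total, in each group), 0 had an adjusted p under 0.05 in permutation tests of Pearson's r. The smallest unadjusted permutation p was 0.289, for miR-574-5p with depth in Ocn. In Prx1 (n = 10), miR-574-3p had an r of 0.22 (permutation p = 0.548, adjusted p = 0.769) and a Spearman rho of 0.26 (permutation p = 0.467, adjusted p = 0.641) with depth, and 0.31 without the 2 libraries farthest from the median. In Ocn (n = 6), miR-574-3p had an r of -0.02 (exact permutation p = 0.985, adjusted p = 0.985) and a rho of -0.37 (exact permutation p = 0.497, adjusted p = 0.641), and 0.89 without Ocn 3 and Ocn 5. The value in Ocn thus rests on those 2 libraries. For miR-574-5p and depth, r was 0.55 in Ocn (n = 6, exact permutation p = 0.289, adjusted p = 0.769), with a rho of 0.54 (exact permutation p = 0.297, adjusted p = 0.641), and r was 0.45 without Ocn 3 and Ocn 5. In Prx1 (n = 10) r was -0.27 (permutation p = 0.461, adjusted p = 0.769) and rho was -0.21 (permutation p = 0.561, adjusted p = 0.641), and without Prx1 8 and Prx1 9, the deepest of the group, r turned to 0.58. The log2 ratio of the arms had an r with depth of 0.26 in Ocn (n = 6, exact permutation p = 0.576, adjusted p = 0.769) and of -0.34 in Prx1 (n = 10, permutation p = 0.342, adjusted p = 0.769), which turned to -0.49 and 0.23 without the same pairs of libraries.

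**Figure D2:**
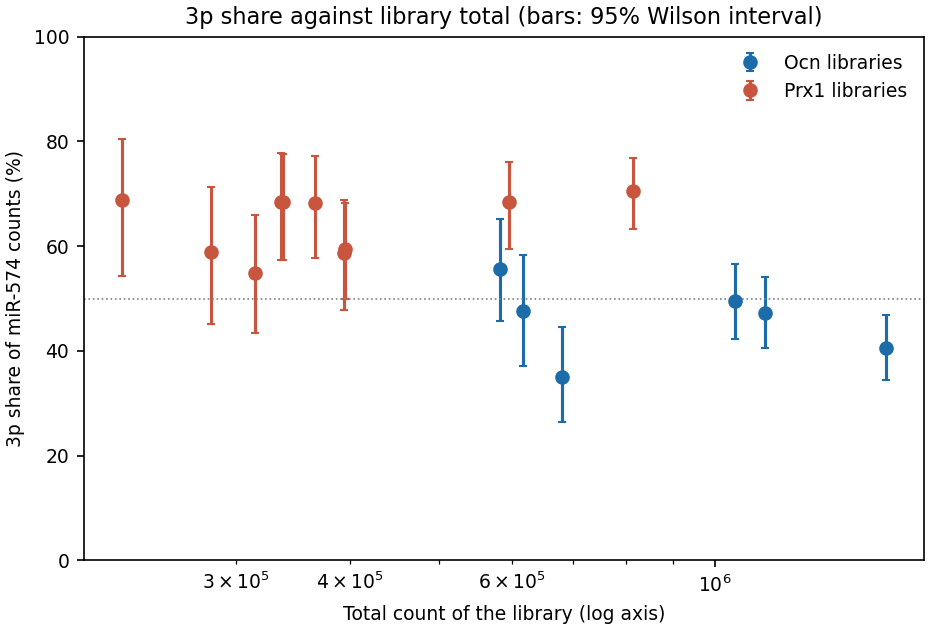
Share of the 3p arm among all miR-574 counts (y axis, percent) against the total count of the library (x axis, log scale), with the 95% Wilson interval as a bar and a dotted line at equal shares. Prx1 libraries lie between 54.9% and 70.5%, and Ocn libraries between 35.0% and 55.7%. Few libraries (3 of Ocn and 2 of Prx1) have totals in the range that both groups reach.

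The balance between the arms can be read within a library, where the scaling cancels. The hairpin was picked through the levels of its arms in these same libraries. The p values of this paragraph are thus descriptions and no independent support. In Prx1 the 3p arm had the higher count in 10 of 10 libraries. The 5p count over the 3p count had a mean log2 of -0.86 ± 0.35 (SD, n = 10; exact sign-flip permutation p = 0.00195, the smallest the test can give with 10 libraries, adjusted p = 0.00391 over both groups). In Ocn the 5p arm had the higher count in 5 of 6 libraries, but the mean log2 ratio of 0.24 ± 0.42 (SD, n = 6) was within the spread between libraries (exact sign-flip permutation p = 0.250, adjusted p = 0.250). Ligation of adaptors can favour one strand over another, so the ratio compares captured strands and may differ from that in the vesicles.

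Library by library, the 3p share in Ocn ran from 35.0% in Ocn 6 (95% Wilson interval 26.4% to 44.6%) through a median of 47.4% to 55.7% in Ocn 3 (45.8% to 65.2%). In Prx1 it ran from 54.9% in Prx1 1 (43.4% to 66.0%) through a median of 68.3% to 70.5% in Prx1 9 (63.3% to 76.8%). The highest Ocn library overlapped the lowest Prx1 library here, unlike for the level of the 3p arm. In Prx1, 6 libraries (2, 4, 5, 8, 9 and 10) lay between 68.2% and 70.5%, and the other 4 (1, 3, 6 and 7) between 54.9% and 59.4%. This split was drawn after the values were seen, and the 95% Wilson intervals of the libraries overlapped across it. The chi-square of the arm shares was 1.25 per degree of freedom in Prx1 and 2.51 in Ocn. The ratio differed between groups by 1.10 on the log2 scale (Ocn minus Prx1), against a pooled SD of 0.38.

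The sum of both arms followed the 3p arm. It ran from 132.9 to 176.9 CPM in Ocn and from 181.1 to 268.4 CPM in Prx1, with means of 158.6 ± 16.6 CPM (SD, n = 6) and 218.0 ± 24.8 CPM (SD, n = 10).

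Hairpins with arms in near balance were few. Of 44 hairpins with both arms tested, 7 in Ocn and 7 in Prx1 had a ratio of the arms, averaged as log2 over libraries, within 2-fold. miR-574 was among them in both groups. The median size of the log2 ratio was 3.69 in Ocn and 3.74 in Prx1, so that in most hairpins one arm was far scarcer than the other. Ordered by the log2 ratio of 5p to 3p in Ocn, miR-574 (0.24 ± 0.42) stood between miR-1306 (-0.04 ± 0.90) and miR-139 (0.30 ± 0.36). In Prx1 miR-574 (-0.86 ± 0.35) stood between miR-455 (-1.10 ± 0.72) and miR-1843a (-0.75 ± 0.66).

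**Figure D3:**
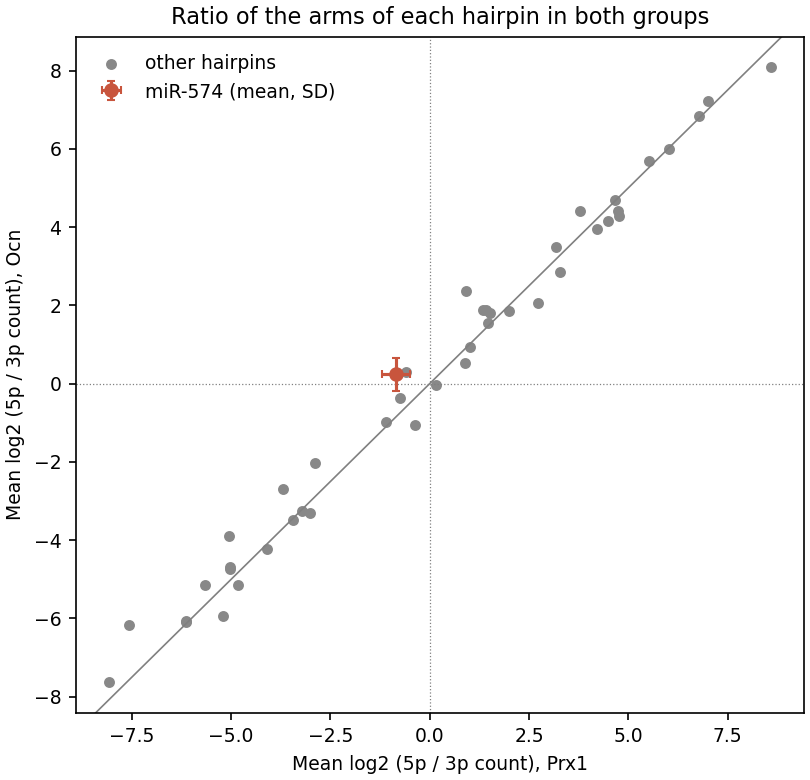
Mean log2 of 5p over 3p counts in Ocn (y axis) and in Prx1 (x axis) for the 44 hairpins with both arms tested, with the line of equal ratios. miR-574, drawn with its SD in each group, lies near 0 on both axes, at 0.24 in Ocn and -0.86 in Prx1, above the line.

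Whether the arms rose and fell together was asked within each group, which does not use the difference between groups. In Ocn (n = 6) the log2 CPM of the arms had an r of -0.30 (exact permutation p = 0.478, adjusted p = 0.769) and a rho of -0.54 (exact permutation p = 0.297, adjusted p = 0.641). Without Ocn 1 and Ocn 3, the libraries farthest from the median of the 5p arm, r was -0.63. In Prx1 (n = 10) r was -0.06 (permutation p = 0.878, adjusted p = 0.985) and rho was -0.04 (permutation p = 0.917, adjusted p = 0.917), and r was -0.27 without Prx1 1 and Prx1 3. No common movement of the arms was detectable at this depth. Counting error alone, which is near the whole spread of the 5p arm, would hide a weak one.

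The entries whose pattern over the 16 libraries was most like that of each arm were ranked by the Spearman rho of log2 CPM after the mean of its group was taken from each value. The libraries share their scaling, and the entries were picked as extremes of 233, so these values are a description. For miR-574-5p the highest rho was 0.65 with let-7f-5p, one of the most abundant entries (129515 ± 19216 CPM over Ocn libraries, 126372 ± 11107 CPM over Prx1 libraries). The next were let-7j (0.65) and miR-191-3p (0.61), and the lowest was miR-181b-5p (-0.77), of the miR-181 family that is abundant in developing lymphocytes. For miR-574-3p the highest were the erythroid miR-451a (0.58), the blood-cell miR-142a-5p (0.58) and miR-362-3p (0.54). In that order of 233 entries, the opposite arm was 165th for the 3p arm and 154th for the 5p arm (rho -0.14).

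The lowest rho for miR-574-3p was -0.87, with miR-3473b. By group, among the same libraries that picked it out, rho was -0.89 in Ocn (n = 6) and -0.73 in Prx1 (n = 10). miR-3473b had 98.9, 37.9, 32.6, 58.0, 92.4 and 242.4 CPM in Ocn 1 to Ocn 6. The 3 Ocn libraries with the most miR-3473b (Ocn 1, 5 and 6) were the 3 with the least miR-574-3p. In Prx1, miR-3473b ran from 16.4 CPM in Prx1 10 to 49.7 CPM in Prx1 6, and Prx1 6 was also the library with the least miR-574-3p. Its level was low beside the totals (28.1 ± 12.4 CPM in Prx1 and 93.7 ± 77.8 CPM in Ocn). Its log2 fold change of Ocn over Prx1 was 1.71 (SE 0.39, edgeR adjusted p = 0.00655), in the direction opposite to that of miR-574-3p.

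**Figure D4:**
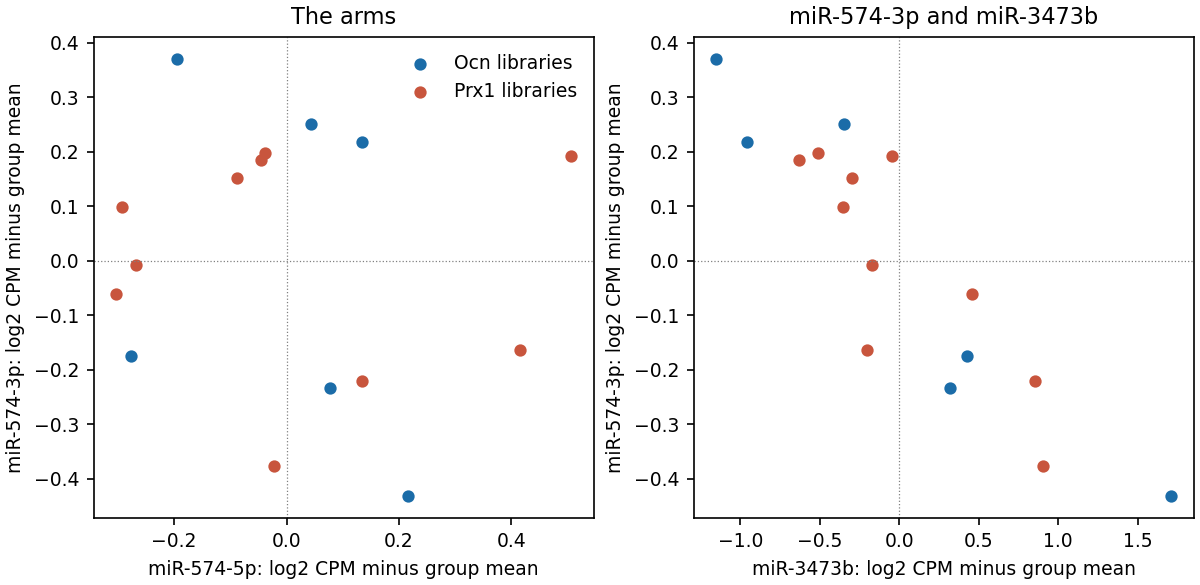
Log2 CPM of miR-574-3p minus its group mean (y axes) against that of miR-574-5p (left) and of miR-3473b (right), 1 point per library. The arms show no common trend (rho -0.14 over 16 libraries), while miR-3473b is high where miR-574-3p is low (rho -0.87), with Ocn 6 farthest to the lower right.

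Other microRNAs linked to Sox9 were set beside the 3p arm. The list held miR-140 and miR-455, which cartilage makes under Sox9, miR-675 from the H19 transcript, miR-145a-5p, which targets Sox9, and miR-29a-3p and miR-29b-3p, which Sox9 represses. Of 9 members, 7 were tested, 0 were higher and 1 was lower in Ocn, against 13.7% of all entries called in either direction. The median log2 fold change of the 7 was 0.04, beside 0.01 for all entries. The list joins microRNAs made under Sox9 with others that Sox9 represses, so this median cannot show whether Sox9-linked entries shifted. miR-29a-3p was the one called, at 12624 ± 2063 CPM over Ocn libraries against 20782 ± 6157 CPM over Prx1 libraries (log2 fold change -0.76, SE 0.18, edgeR adjusted p = 0.00756). The arms of miR-140 had log2 fold changes of 0.50 (SE 0.21) for miR-140-5p and -0.51 (SE 0.19) for miR-140-3p, with edgeR adjusted p of 0.116 and 0.0788. miR-455-5p (0.15, SE 0.27), miR-455-3p (0.10, SE 0.26), miR-145a-5p (-0.19, SE 0.20) and miR-29b-3p (0.04, SE 0.15) were not called. miR-675-3p had 1 count and miR-675-5p had 0 in all 16 libraries, which allows up to 0.310 CPM over their summed total.

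MicroRNAs known like miR-574-5p as ligands of toll-like receptors were far more abundant. let-7b-5p averaged 48535 ± 6579 CPM over Ocn libraries and 51450 ± 8388 CPM over those of Prx1. miR-21a-5p had 13044 ± 2160 and 12330 ± 2031 CPM, and miR-146a-5p had 5380 ± 623 and 5301 ± 2379 CPM. Of the 4 in the list, 0 were higher and 1 was lower in Ocn, again miR-29a-3p, where 5.98% and 7.69% of all tested entries were called higher and lower. The other 3 had log2 fold changes between -0.11 and 0.04, none called by edgeR.

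MicroRNAs of the miR-297, miR-466, miR-467 and miR-669 families, many of which are also made of G and U or C and A repeats, were compared as a check of repeat-rich entries. Of 80 such entries 53 had a count and 2 were tested. Of the 2 tested, 0 were called by edgeR, where 13.7% of all 234 tested entries were called. Also 0 had an unadjusted p under 0.05 in edgeR, where 62 of the 234 had. With 2 entries tested, these counts cannot show whether repeat-rich entries differ from the rest. The most abundant was miR-669c-5p, at 56.2 ± 8.6 CPM over Ocn libraries and 63.6 ± 29.1 CPM over those of Prx1 (log2 fold change -0.16, SE 0.24). It was followed by miR-669a-3p (38.0 ± 21.1 and 44.5 ± 16.03 CPM). miR-466i-5p and miR-467c-5p, below the filter, had 125 and 139 counts in all. Summed over the 80 entries the level was 186.4 to 288.3 CPM in Ocn and 174.9 to 324.1 CPM in Prx1.

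MicroRNAs known from other cell types were counted in both groups. Over 9 marker lists with 35 members, 31 were tested, of which 2 were higher and 4 were lower in Ocn, beside 13.7% called among all tested entries. Those higher were miR-199a-5p (0.43, SE 0.13) and the neural miR-219a-5p (0.82, SE 0.20). Those lower, like miR-574-3p, were miR-150-5p of mature lymphocytes (-1.05, SE 0.20), the erythroid miR-486a-5p (-0.38, SE 0.13), and miR-133a-3p (-0.68, SE 0.16) and miR-133b-3p (-0.96, SE 0.24) of muscle. Their edgeR adjusted p ran from 0.00125 to 0.0451, and all 6 are named after their values were seen. The rest of the erythroid list went the opposite way to miR-486a-5p. miR-451a (0.22, SE 0.18), miR-144-3p (0.58, SE 0.20) and miR-144-5p (0.17, SE 0.17) had positive log2 fold changes and were not called. The rest of the mesenchymal list, which holds miR-199a-5p, went both ways with none called. There miR-143-3p (0.29) and miR-199a-3p (0.11) were positive, and miR-10b-5p (-0.41), miR-214-3p (-0.29) and miR-145a-5p (-0.19) were negative. Beside miR-219a-5p, the neural miR-9-5p was positive (0.38) and miR-128-3p negative (-0.12), neither called. The summed levels of the groups overlapped in 9 of 9 lists, where 3.85% of single entries did not overlap. The lymphoid list of 3 members ran from 2415 to 4895 CPM in Ocn and from 3149 to 6350 CPM in Prx1, led by miR-342-3p. The erythroid list of 4, led by miR-486a-5p, ran from 14654 to 27749 and from 18434 to 27471 CPM, and the myeloid and pan-leukocyte list of 4, led by miR-142a-3p, from 39360 to 94638 and from 42431 to 69316 CPM. The muscle list of 6, whose sum is mostly miR-1a-3p (log2 fold change 0.34, SE 0.17), ran from 46734 to 77420 and from 39893 to 70774 CPM. The chondrocyte list of 4, led by miR-140-3p, ran from 5366 to 6904 and from 3781 to 11337 CPM, and the mesenchymal list of 6, led by miR-199a-3p, from 31981 to 43677 and from 27199 to 35912 CPM. The endothelial list of 2 was led by miR-126a-3p (16712 to 20837 and 12913 to 19289 CPM), the neural list of 4 by miR-128-3p (743 to 890 and 626 to 947 CPM), and the liver list of 2 by miR-192-5p (160 to 304 and 139 to 1910 CPM). The highest liver value came from miR-122-5p, with 1644 CPM in Prx1 5 and at most 23.5 CPM in any other library. Prx1 5 was also the library with the most miR-574-3p (159.9 CPM), by a narrow margin. Prx1 3 and Prx1 10 had 159.5 and 158.5 CPM of miR-574-3p, with 10.1 and 5.5 CPM of miR-122-5p. Without Prx1 5 the log2 fold change of miR-574-3p was -0.95 (SE 0.16). The neural miR-124-3p had 0 counts. The part of these cells in the level of miR-574-3p was not tested.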

How the data were processed

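The authors' deposited table holds raw counts per mature microRNA, 1 column per library and no normalization, with the unit taken from the values. Per the labels' protocols, libraries were made with the QIAseq miRNA kit from 1 ng of RNA. The submitters' processing notes name cutadapt 1.18 and the build mm10. For the aligner and the annotation, a name is not given in the sources used here. It is likewise unstated whether molecular identifiers served to count molecules. Without identifiers, amplification copies are among the counts.

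Levels are CPM of the column total. Log values had 0.5 added to each count. The whole table was fitted with edgeR 4.0.16 in R 4.3.3 (TMM factors, filterByExpr, robust quasi-likelihood F test, group as the only term, Benjamini-Hochberg threshold 0.05), and the SE was the log2 fold change over the square root of F. The fit was tested on 5 simulated sets of counts with 200 changed entries each. These held no effect of depth beyond the library totals, so they cannot show how depth bears on the calls. Permutation tests (scipy 1.17.1) were 2-sided, exact in Ocn and with 100000 resamples for correlations in Prx1. The hairpin was folded with ViennaRNA 2.7.2. Of the 1915 entries, 1623 matched a RefSeq sequence by name. Seeds were compared over all RefSeq mature microRNAs.

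The arms, lists and tests were chosen with earlier results of these data known. Other microRNAs were named by rule: entries similar in sequence, neighbours in level, the 3 highest and the lowest in likeness, members of the Sox9 and toll-like receptor lists, the leading repeat-rich and marker entries, and hairpins next in order of arm ratio. Per the design text each group is a set of mice. No library repeated another of its group within sampling noise (smallest chi-square per degree of freedom 5.04).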

Additional observations from a re-analysis of the deposited data

How the results depend on the processing

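Over the alternatives run (other scalings, filters, pseudocounts, DESeq2 1.42.0, limma voom, thinning to 225273 counts, depth as a covariate, each library left out), the difference in miR-574-3p kept its sign and stayed within 1 SD of its value. Leaving out each library gave -1.03 to -0.87 in log2 CPM and -1.06 to -0.84 in edgeR. For miR-574-5p the edgeR log2 fold change ran from 0.09 to 0.24 with a library left out and was -0.07 after thinning. The difference of the ratio ran from 0.97 to 1.21 with a library left out, and was 0.79 after thinning and 1.41 in the shared range of totals. The number of entries called by edgeR, 32 in all, was 24 to 36 with a library left out and 42 with DESeq2. It was 0 with log10 of the total as a covariate (40 at an unadjusted p under 0.05). It was also 0 with edgeR in the 5 libraries of the shared range of totals (30 at an unadjusted p under 0.05), where fewer libraries were tested. With upper quartile factors 26 entries were higher and 11 lower in Ocn, in place of 14 and 18. After thinning, the r of the arms was 0.066 in Ocn and 0.45 in Prx1, and the mean log2 ratio in Ocn was -0.064, all of the opposite sign and none past the threshold before or after. Thinning was a single random draw per library and was not repeated. Such a draw takes both arms in the same proportion on average, so the values after thinning also hold the noise of that draw. Thinning lowers the counts of the arms, and any other cause was not tested. With the replicate block, the log2 fold changes were 0.03 (5p) and -0.99 (3p), with 27 entries called. Libraries of the same number correlated by 0.01 to 0.22, 1 of 6 Ocn libraries correlated best with its own number, and the labels give no pairing. Depth limits the 5p arm most, with 14 counts in the shallowest library.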

Other observations

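A call in the 3p arm alone was made by edgeR in 5 of the 44 hairpins (11.4%), and in the 5p arm alone in 2. All of these names were chosen after their values were seen. Beside miR-574 the 5 were miR-18a of the Mir17 cluster, miR-133a of muscle, miR-139 and miR-532, and in each the 3p arm was lower in Ocn. miR-532-3p, which has 8 bases in common with miR-574-3p, averaged 21.6 ± 6.9 CPM over Ocn libraries and 37.3 ± 16.8 CPM over those of Prx1 (log2 fold change -0.89, SE 0.28, edgeR adjusted p = 0.0320), while miR-532-5p had -0.10 (SE 0.15). The groups overlapped for miR-532-3p, at 15.2 to 34.0 CPM in Ocn and 8.88 to 71.5 CPM in Prx1. The arms of miR-139 gave log2 fold changes of -0.80 (3p, SE 0.19, edgeR adjusted p = 0.00819) and 0.04 (5p, SE 0.23). The 5p-only calls were miR-199a-5p, higher in Ocn (0.43, SE 0.13), and miR-486a-5p, lower in Ocn (-0.38, SE 0.13), with edgeR adjusted p of 0.0290 and 0.0451.

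In 3 of the 44 hairpins, the sign of the mean log2 ratio of 5p to 3p differed between the groups. For miR-574 this rests on an Ocn mean of 0.24 that was within the spread between libraries. In a single random draw that thinned the counts to equal totals, it became -0.064, with a negative mean log2 ratio in both groups. The others were miR-139, at a log2 ratio of 5p to 3p of 0.30 ± 0.36 over 6 Ocn libraries and -0.61 ± 0.87 over 10 Prx1 libraries (SD), and miR-1306, at -0.04 ± 0.90 and 0.16 ± 1.09.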
